A study of Rattus norvegicus with 24 samples.

Results

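Cks2, Glce, Rictor, Gigyf2, Oser1, Rnf138, Dctn6, Mtf1, Pnpla8 and Ccz1 are 10 genes whose transcripts in peripheral blood mononuclear cells (PBMC) of healthy untreated rats stood away from the later groups or from untreated rats with collagen-induced arthritis (CIA). They were chosen by their levels in the healthy baseline group against those of the later groups or of the untreated CIA rats, among 14217 genes that the array names by a single symbol, and they are measured by 25 of its 31042 probe sets after control probe sets are left out. A probe set is a group of short oligonucleotides whose brightness is summarised as 1 log2 level, so a difference of 1 is a doubling. All 25 passed the filter on low values, although the dimmest probe set of Pnpla8 did so through only 2 arrays and that of Mtf1 through 5. Each value below belongs to 1 probe set, and for every gene the probe set farthest from the other groups in healthy baseline is called its leading probe set.

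The blood came from 24 female Wistar rats, 2 for each of 12 groups, and every array held the PBMC of a separate animal that was sacrificed after sampling. NORA_T0 and RA_T0 are healthy rats and CIA rats before any therapy. Other healthy rats were sampled as NORA_1h and NORA_34d, at 1 hour and 34 days. Other CIA rats were sampled at the same times in 4 arms. These were AP (needle insertion with rotation, called mechanical stimulation), MTX (methotrexate injection), PLA (saline injection) and ANE (isoflurane alone, with no other therapy). The study's methods give ether as the anaesthetic at blood sampling in the PLA, AP and MTX arms and isoflurane in ANE, so the anaesthetic and the therapy cannot be told apart there. For the baseline groups and the healthy rats the anaesthetic is not named. CIA was raised in all groups but NORA by immunisation with bovine collagen, so the disease is an induced one, in a single strain and sex. With 2 animals a group an exact two-sided permutation test of any pair of groups cannot go below p = 0.333, and all tests below therefore come from a linear model (limma) in which the 12 groups share their spread.

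Array medians lay between 5.49 and 5.58 and levels between 2.18 and 15.02. The PBMC markers were present, with mean levels of 11.36 for Cd3e of T cells, 9.05 for Cd79b of B cells and 10.68 for Cd14 of monocytes, but platelet and red cell transcripts were bright as well, at 14.47 for Pf4 and 14.78 for Hbb. AP_1h replicate 1, AP_34d replicate 1, ANE_1h replicate 1 and PLA_1h replicate 2 stood apart by their platelet transcripts, with a centred mean over 10 platelet genes of 0.97 to 1.33, where the other 20 arrays reached at most 0.51. Results are given with and without these 4 arrays where they differ. Without them AP_1h, AP_34d, ANE_1h and PLA_1h are left with a single array each. Fewer cells of a type and less RNA per cell cannot be told apart in such bulk samples.

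The 10 genes do not form a known pathway. Cks2 encodes a small protein that binds cyclin-dependent kinases and is needed for cell division. Rictor is the defining subunit of mTOR complex 2, Gigyf2 helps to silence translation together with the cap-binding protein 4EHP, and Oser1 is an oxidative stress responsive gene downstream of FOXO factors. Rnf138 is a ubiquitin ligase recruited to DNA breaks, and Mtf1 is the zinc-sensing transcription factor that switches on metallothioneins. Dctn6 is a subunit of dynactin, the cofactor of the dynein motor, while Ccz1 with Mon1 activates the endosomal GTPase Rab7. Pnpla8 is a calcium-independent phospholipase of mitochondria and peroxisomes, and Glce is the epimerase that turns glucuronic acid into iduronic acid during heparan sulphate synthesis.

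Upstream sequence was available from RefSeq, on build GRCr8, for 9 of the 10 genes. The 250 bases before the annotated start are shown for Cks2, which differed most, for Mtf1, whose own binding element could be searched, and for Gigyf2, which ran the other way. In Cks2 (chr17:13727520-13727769, minus strand) the capitals mark CCAAT on either strand and the cell cycle element TTTGAA, which is read on the opposite strand. In Mtf1 (chr5:142346804-142347053, plus strand) they mark CCAAT and the metal response core TGCNCNC on either strand, and in Gigyf2 (chr9:95448929-95449178, plus strand) the E-box CACGTG and the cAMP element core TGACG, which overlap.
Cks2: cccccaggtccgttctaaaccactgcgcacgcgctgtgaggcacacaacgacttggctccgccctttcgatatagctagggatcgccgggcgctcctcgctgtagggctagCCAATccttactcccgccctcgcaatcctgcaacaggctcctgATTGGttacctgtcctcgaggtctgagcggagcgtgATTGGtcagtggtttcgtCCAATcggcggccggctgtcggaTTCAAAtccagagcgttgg
Mtf1: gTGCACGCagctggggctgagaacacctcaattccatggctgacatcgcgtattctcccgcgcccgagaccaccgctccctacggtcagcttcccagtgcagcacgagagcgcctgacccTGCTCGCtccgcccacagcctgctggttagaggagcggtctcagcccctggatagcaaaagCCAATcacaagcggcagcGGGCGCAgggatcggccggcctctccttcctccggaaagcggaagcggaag
Gigyf2: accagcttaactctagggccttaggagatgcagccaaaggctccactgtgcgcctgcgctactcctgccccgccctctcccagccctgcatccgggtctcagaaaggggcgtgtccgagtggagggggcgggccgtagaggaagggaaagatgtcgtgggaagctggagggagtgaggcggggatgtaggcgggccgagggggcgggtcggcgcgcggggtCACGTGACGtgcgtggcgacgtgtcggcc
The Cks2 stretch held 4 CCAAT boxes, and 34.0% of the 33469 promoters searched held at least 1. TTTGAA was found in Cks2 alone of the 9 genes, against 16.2% of all promoters. TGCNCNC was found in 5 of the 9, Mtf1 among them with 3 matches, and in 43.4% of all promoters. The core TGACG lay in Gigyf2, Rnf138 and Pnpla8, the E-box in Gigyf2 and Oser1, and their shares over all promoters were 18.2% and 5.59%. No motif was common to the 9 genes, and these matches describe letters only.

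Cks2 was the member farthest from the rest. Its only probe set read 8.06 and 8.09 in healthy baseline, and from 8.82 to 11.55 with a median of 10.28 in the other 22 arrays, so the groups did not overlap. The mean of the other 11 groups was higher by 2.14, a 4.40-fold difference, against a within-group SD of 0.24, and this was the 17th largest difference among the 31042 probe sets. CIA baseline came next from below, at 8.94 and 8.82, followed by ANE_34d at 9.57 and 9.43 and by healthy rats at 1 hour at 9.88 and 9.60. The 7 remaining groups of CIA rats had means between 10.03 and 10.79, and neighbours in that stretch lay less than 1 within-group SD apart. Healthy rats at 34 days were highest, at 11.55 and 10.87, which put the lowest and the highest group means of Cks2 both in rats without arthritis. Since these values chose the gene, they are given without a test.

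Dctn6 and Pnpla8 had the same 5 lowest groups, namely NORA_T0, ANE_1h, ANE_34d, NORA_1h and RA_T0. Their order was not fully resolved, since NORA_1h and RA_T0 had Dctn6 means of 6.062 and 6.064 against a within-group SD of 0.23. The leading probe set of Dctn6 read 4.75 and 4.72 in healthy baseline against 5.29 to 7.86 elsewhere, with a difference of 1.67 between the mean of the other groups and healthy baseline. Its next group was ANE_1h at 5.29 and 5.50, and its highest again NORA_34d at 7.86 and 7.18. The leading probe set of Pnpla8 read 5.12 and 5.07 against 5.30 to 7.31, a difference of 1.31, and here a single ANE_1h array at 5.30 came close to healthy baseline. The gap to the nearest other array was 0.54 for Dctn6 and 0.17 for Pnpla8.

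Mtf1, Ccz1, Oser1 and Rnf138 were likewise lowest in healthy baseline and highest in NORA_34d. Mtf1 read 5.39 and 5.82 in healthy baseline and 6.06 to 7.94 in the other arrays, and its difference was 1.28. Ccz1 read 5.15 and 5.08 against 5.64 to 7.18, a difference of 1.26. For Oser1, a gene with a single probe set, the values were 8.37 and 8.08 against 8.76 to 10.33, a difference of 1.20. Rnf138, at the brightest of its 3 probe sets, read 9.17 and 8.74 against 9.43 to 10.86, a difference of 1.16. Both healthy baseline arrays lay below every other array at each of these 4 probe sets, and within-group SDs ran from 0.22 to 0.31.

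Rictor, Glce and Gigyf2 lay just outside this complete separation. Rictor, at a dim probe set that passed the 40th percentile in only 12 arrays, read 3.96 and 3.57 in healthy baseline, and 1 healthy array at 1 hour read 3.76. Its mean over the other 11 groups was higher by 1.32, and the healthy rats at 34 days stood far above, at 7.04 and 6.65. Glce and Gigyf2 ran the opposite way, being highest in healthy baseline and lowest in NORA_34d. Glce read 8.04 and 7.89 in healthy baseline and 4.51 to 7.94 in the other arrays, so that the other groups fell by 1.64 on average, and NORA_34d read 4.86 and 4.51. Gigyf2 read 5.81 and 5.76 against 4.34 to 5.76, and the mean of the other groups lay 0.87 lower. The array nearest to healthy baseline was the same for Glce and Gigyf2, namely NORA_1h replicate 1, which overlapped by 0.05 and 0.01.

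**Figure D1:**
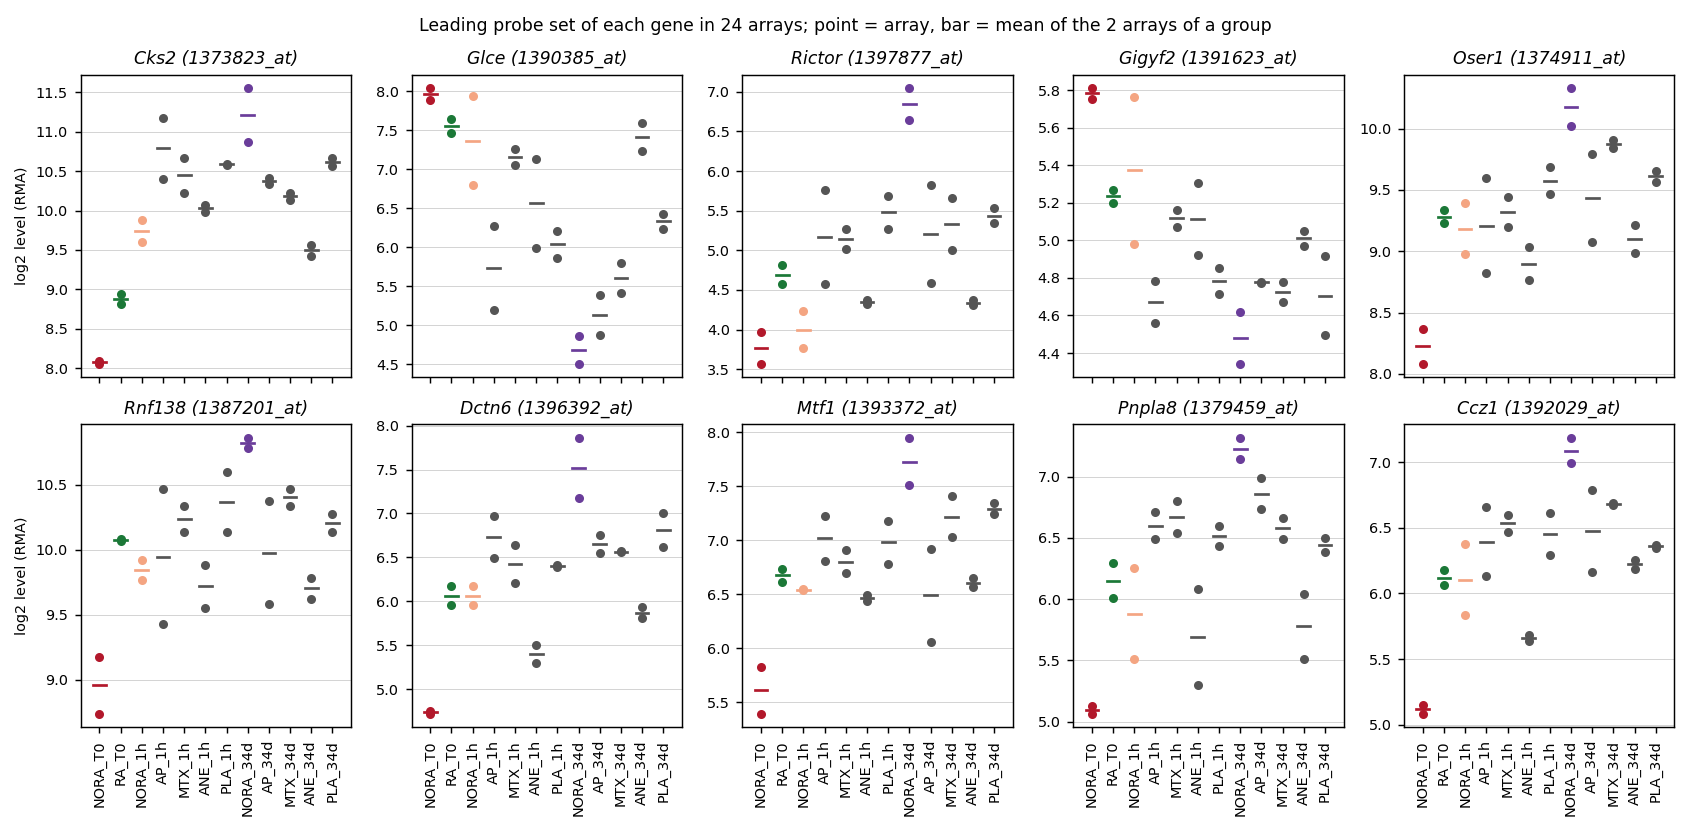
Log2 level of the leading probe set of each of the 10 genes (vertical axes) in the 12 groups (horizontal axes), where a point is an array and a bar the mean of the 2 arrays of a group. NORA_T0 is lowest and NORA_34d highest in 8 panels, and Glce and Gigyf2 show the reverse.

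Over all members, 9 of the 25 probe sets separated healthy baseline completely from the other 22 arrays, 7 below and 2 above, and they belong to 8 of the genes. The same held for 3% of all probe sets, 1.17% below and 1.84% above. Those above were a second probe set of Gigyf2, at 6.33 and 6.52 against at most 6.19, and the dimmest of Mtf1, at 5.17 and 5.23 against at most 5.08. Just inside were thus this Mtf1 probe set, with a gap of 0.10, and the Gigyf2 one, with 0.14, and just outside were the dimmest Pnpla8 and the leading Gigyf2 probe sets, which overlapped by 0.002 and 0.007. The difference between both baselines alone was 1.33 for Dctn6, 1.12 for Rnf138, 1.07 for Mtf1, 1.06 for Oser1 and for Pnpla8, 1.01 for Ccz1, 0.93 for Rictor and 0.80 for Cks2, with CIA rats higher. Glce fell by 0.41 and Gigyf2 fell by 0.55 from healthy to CIA baseline. For comparison Sik1, a cAMP-induced kinase that ranked 7th among all probe sets in this contrast, read 8.74 and 8.81 in healthy baseline and 4.91 to 5.61 in every other array.

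For 6 of the genes the leading probe set was not the brightest one, and the brightest one showed little of the difference. The brightest Dctn6 probe set read 8.94 and 8.91 in healthy baseline, amid 8.30 to 9.17 elsewhere, and differed by -0.08 where the leading probe set differed by 1.67. Across the 24 arrays the correlation between both probe sets of Dctn6 was r = -0.34. The brightest probe set of Ccz1 differed by -0.05 (r = 0.06 with its leading probe set), that of Pnpla8 by 0.04 (r = 0.08) and that of Rictor by 0.05 (r = 0.60). In Gigyf2 the brightest one differed by -0.08 (r = 0.39). Mtf1 turned around, since its brightest probe set read 7.72 and 7.70 in healthy baseline, near the top of its range, and the mean of the other groups lay 0.27 lower (r = -0.70).
In Rnf138 and Gigyf2 further probe sets followed the leading one. The other Rnf138 probe sets differed the same way, by 0.50 and 0.36, with r = 0.83 and r = 0.76 to the leading one, although their healthy baseline arrays overlapped the others. Of the 4 further Gigyf2 probe sets, 3 differed by -0.76, -0.63 and -0.46 (r = 0.78, 0.74 and 0.67), and the last by -0.01 (r = 0.29). Cks2, Glce and Oser1 have a single probe set, so no second reading exists for them. The probe sets of a gene target different stretches of its transcripts, and the files do not say which transcript form each one reads. These correlations are over arrays that share their groups and are given without a p.

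**Figure D2:**
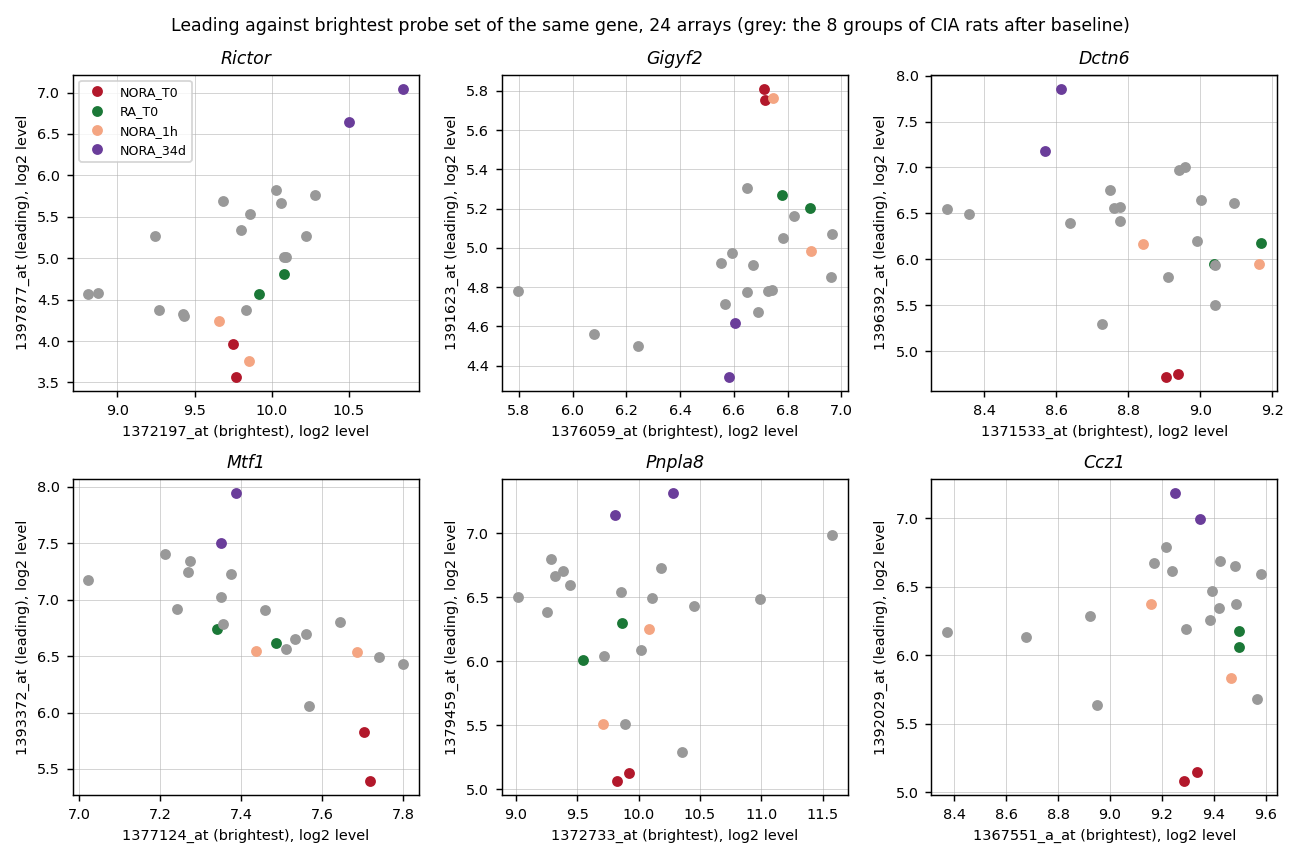
Log2 level of the leading probe set (vertical axis) against the brightest probe set (horizontal axis) of the same gene in the 24 arrays, for the 6 genes where they differ. Healthy baseline sits at the bottom (top for Gigyf2) of the vertical axis but inside or near the edge of the range on the horizontal axis.

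The other Pnpla8 probe sets followed another pattern. The brightest one reached 11.58 in AP_34d replicate 1 and 10.99 in AP_1h replicate 1, both platelet-rich arrays, while the second AP_34d array read 10.18 and PLA_34d was lowest at 9.01 and 9.25. The second brightest had its maximum of 10.57 and the dimmest its maximum of 7.18 in AP_34d replicate 1 as well. Their spread within groups, with SDs of 0.55, 0.53 and 0.77 in the order named, was larger than the 0.28 of the leading Pnpla8 probe set.

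Both ends of the range were held by healthy rats, different animals sampled at baseline and at 34 days. In NORA_34d, 8 of the 25 member probe sets lay above all other 22 arrays and 2 below, where 5.13% and 1.74% of all probe sets did so. From healthy baseline to NORA_34d the change was 3.14 for Cks2, 3.08 for Rictor, 2.78 for Dctn6 and 1.87 to 2.14 for Pnpla8, Mtf1, Ccz1, Oser1 and Rnf138, and Glce fell by 3.28 and Gigyf2 by 1.30. The healthy rats sampled at 1 hour differed from healthy baseline by 1.66 at Cks2 and 1.33 at Dctn6, but by only 0.23 at Rictor. The leading probe sets of the CIA arms differed from CIA baseline by 1.58 at 1 hour and 1.29 at 34 days for Cks2, and by 0.41 or less in size for Dctn6, Mtf1, Pnpla8, Ccz1, Oser1, Rnf138 and Rictor at both times. Glce differed from CIA baseline by -1.18 at 1 hour and -1.44 at 34 days, against -0.60 at 1 hour in healthy rats. Among the further probe sets, one of Gigyf2 differed by -1.05 and -1.36 and the dimmest of Mtf1 by -0.71 and -0.80. These contrasts hold a baseline group and carry no test.

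**Figure D3:**
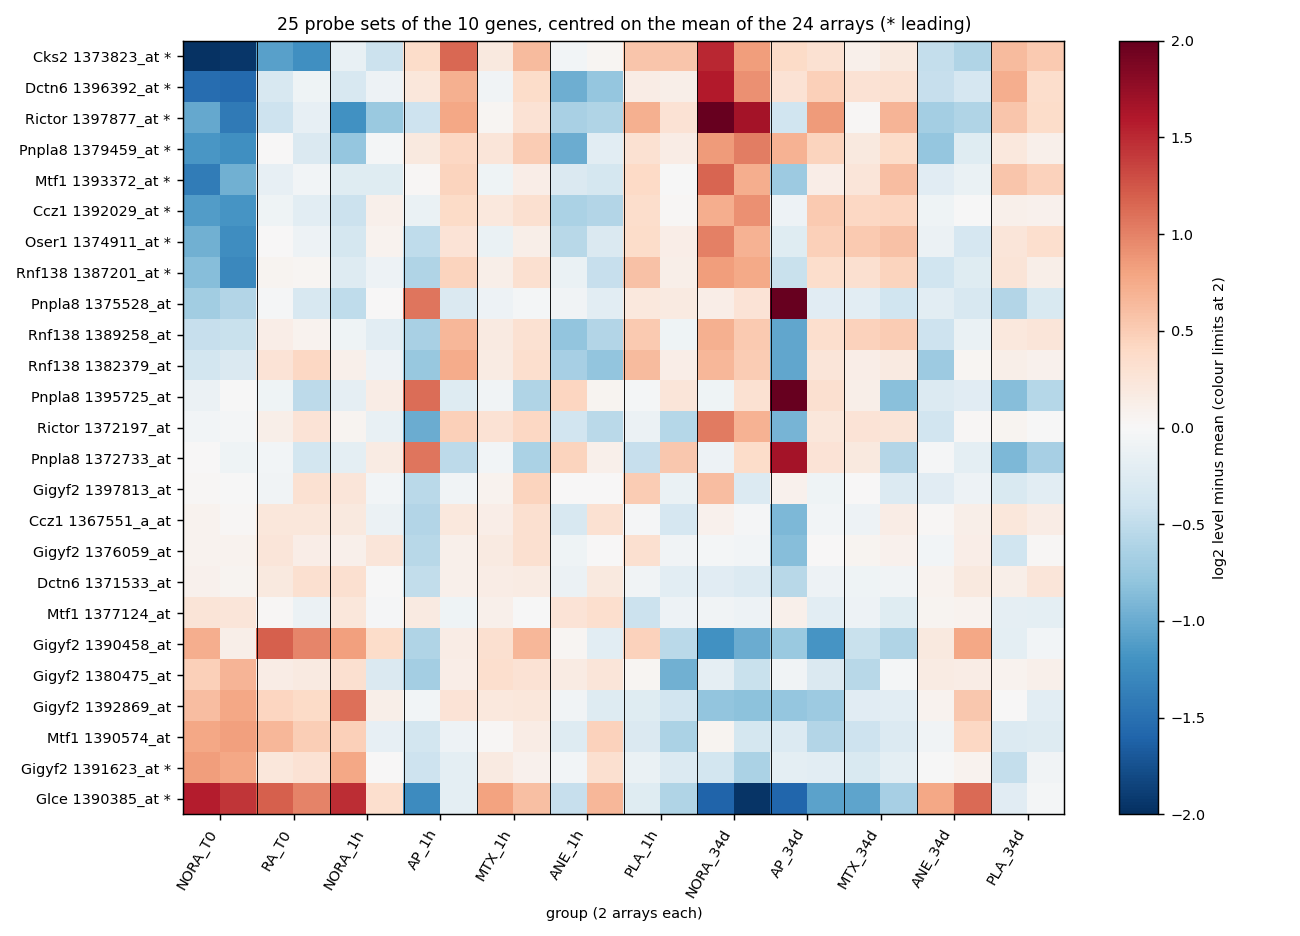
Log2 level of each of the 25 probe sets minus its mean over the 24 arrays (colour, limits at 2 in either direction), with arrays in columns by group and probe sets in rows ordered by the difference between the other groups and healthy baseline. The 8 leading rows at the top run from low in NORA_T0 to high in NORA_34d, and AP_34d replicate 1 stands out at 3 Pnpla8 rows.

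Away from healthy baseline the leading probe sets still moved together. Over the other 22 arrays the 28 pairs among the 8 genes that were lowest in healthy baseline had r from 0.54 to 0.89, with a median of 0.80. Oser1 with Rnf138 (r = 0.89) and Rictor with Rnf138 (r = 0.89) were the closest pairs, and Cks2 was the loosest member, with 0.54 to Rnf138 and 0.74 to Dctn6. Glce and Gigyf2 correlated with each other at 0.85, and with the 8 genes at -0.66 to -0.39. This opposite course lay between groups, since on deviations from group means over the 24 arrays Glce correlated with the 8 genes at 0.14 to 0.53 and Gigyf2 at -0.28 to 0.42. Among the 8 genes the same deviations gave r from -0.03 (Mtf1 with Pnpla8) to 0.90 (Rictor with Rnf138). Pnpla8 had 0.03 with Cks2 and 0.07 with Rnf138, so these pairs moved together between groups only, but 0.41 with Ccz1. The arrays share their groups, and NORA_34d alone spans much of the range, so the values describe these arrays only.

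Over the 22 arrays outside healthy baseline, Cks2 was most like Mapk6 (r = 0.889), Nfkb2 (0.841) and Usp2 (0.837). Mapk6, an atypical MAP kinase, read 8.01 and 8.10 in healthy baseline and 8.34 to 9.41 elsewhere, and so was itself lower there, while Nfkb2, a subunit of NF-kappaB, read 7.38 and 7.78 within a range of 7.10 to 9.31. Dctn6 was most like Traf6 (0.937), an adaptor of Toll-like receptors, and both Rictor and Mtf1 had Tollip (0.951 and 0.923), a regulator of the same receptors, among their nearest 3 genes. Oser1 was nearest to Nifk (0.961) and Rnf138 to Stt3b (0.971) and Uspl1 (0.971). Glce was nearest to Prkacb (0.967), the catalytic subunit beta of protein kinase A, Gigyf2 to Mtrfr (0.922), Ccz1 to Utp15 (0.930) and Pnpla8 to Dnajc5 (0.880). With healthy baseline included the nearest gene remained Mapk6 for Cks2 (0.921) and Prkacb for Glce (0.971), and only Pnpla8 had another member, Dctn6 (0.901), among its nearest 3.

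The contrast of arthritic and healthy rats after baseline leaves out the baseline arrays, but it is not independent of how the genes were chosen. That choice set healthy baseline against the later groups, NORA_34d among them. Each leading probe set was picked by the same difference, and NORA_34d was an extreme group at all of them. The p-values below describe the contrast and give no separate support for the choice. At 34 days 5 of the 25 member probe sets passed the test, 4 of them lower and 1 higher in CIA rats, where 2.3% of the 20690 probe sets tested did (1.91% lower and 0.387% higher). Cks2 was lower in the CIA arms, with 9.43 to 10.67 in 8 arrays against 11.55 and 10.87 in the healthy rats, a difference of -1.05 ± 0.19 (SE; limma, adjusted p = 0.0155). The leading probe set of Rictor differed by -1.76 ± 0.31 (limma, adjusted p = 0.0133) and that of Dctn6 by -1.04 ± 0.18 (limma, adjusted p = 0.0135). Mtf1 was lower at its leading probe set as well, with a difference of -0.82 ± 0.21 (limma, adjusted p = 0.0495). Glce was higher in the CIA arms, with 4.88 to 7.59 against 4.86 and 4.51, a difference of 1.44 ± 0.32 (limma, adjusted p = 0.0319). The leading probe sets of Pnpla8, Ccz1, Oser1 and Rnf138 read -0.81, -0.65, -0.67 and -0.75 with adjusted p from 0.0582 to 0.105, and Gigyf2 0.32 with an adjusted p of 0.372, all by limma.
Without NORA_34d replicate 1 the difference shrank to -0.71 for both Cks2 and Dctn6. Leaving out the 4 platelet-rich arrays gave 14 of 25, in a fit where 16.5% of all probe sets passed. The Cks2 and Dctn6 calls were lost without NORA_34d replicate 1 alone, the Rictor call without either NORA_34d array, the Glce call in 7 of the 10 fits that left out an array and the Mtf1 call in 8. All 5 calls were lost when only the 5 groups compared were fitted, with adjusted p from 0.0576 to 0.127 by limma. Among the markers, the B cell and NK cell lists of NORA_34d lay low, but within the range of the CIA arms at 34 days. The centred B cell list of 7 genes read -0.77 and -0.69 in NORA_34d, where the CIA arms at 34 days ranged from -1.29 to 0.77, and the NK cell list of 9 genes read -1.01 and -0.78 against -1.48 to 0.48. The 3' minus 5' difference of Actb, a sign of RNA integrity, was 0.65 and 0.64 in NORA_34d and 0.36 to 0.55 in the 8 CIA arrays, so the groups did not overlap. The part of these values in the result was not tested.

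At 1 hour the same contrast had the other sign. None of the 25 probe sets passed limma's test, and none of all 20690 did, while 7 member probe sets had an unadjusted p under 0.05 (3.08% of all probe sets). Cks2 read 9.98 to 11.18 in the 4 CIA arms against 9.88 and 9.60 in NORA_1h, a difference of 0.72 ± 0.19 (SE; limma, adjusted p = 0.994). Rictor differed by 1.04 ± 0.31 (limma, adjusted p = 0.994), and Glce read 6.37 on average against 7.37 (SE 0.32; limma, adjusted p = 0.994). The change of the contrast from 1 hour to 34 days was tested as an interaction, which 2 of the 25 probe sets, both negative, and 0.0532% of all probe sets passed (0.0435% lower and 0.00967% higher). It was -1.77 ± 0.27 for Cks2 and -2.80 ± 0.44 for Rictor (SE; limma, adjusted p = 0.0329 for both). For Glce it was 2.43 ± 0.45, with an adjusted p of 0.0548 by limma. Without the 4 platelet-rich arrays 13 probe sets passed, in a fit where 10.7% of all did, and none did in 10 of the 20 fits that left out a single array, those without NORA_34d replicate 1 and NORA_1h replicate 1 among them.

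**Figure D4:**
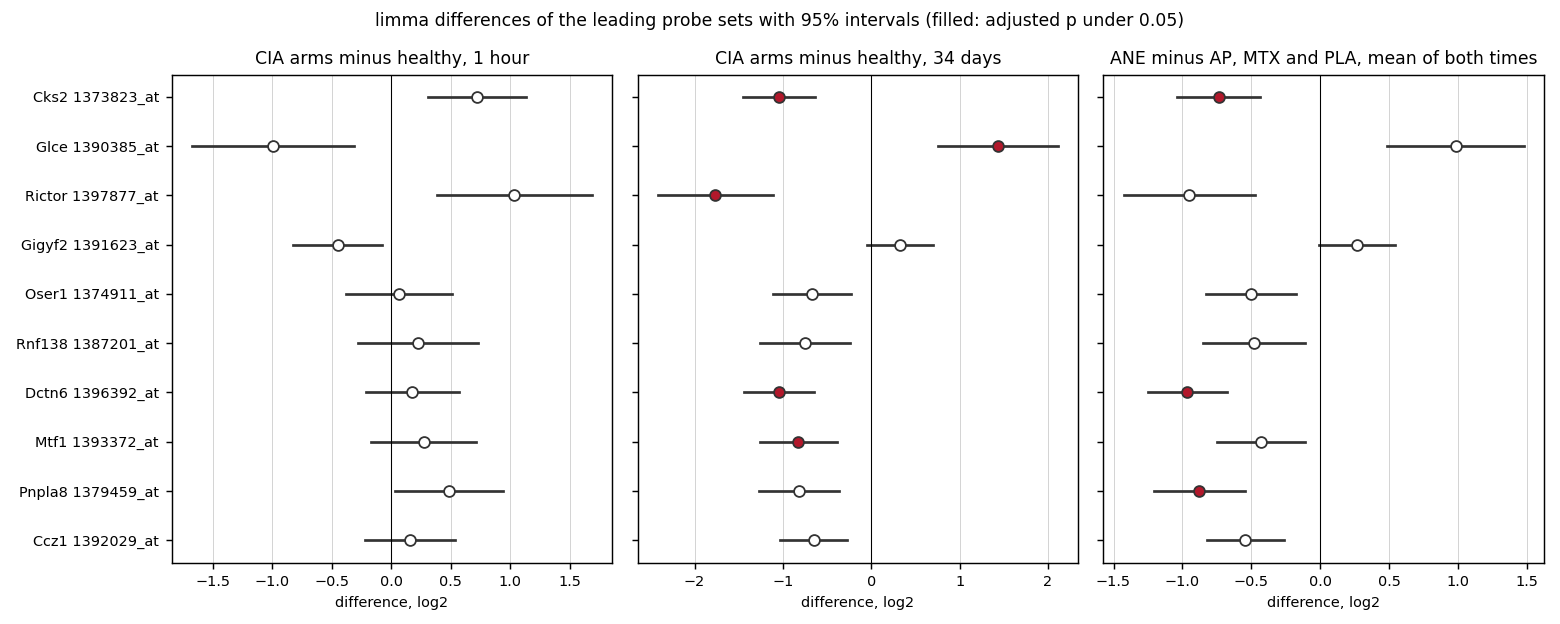
Difference in log2 level (horizontal axes) with its 95% interval for the leading probe set of each gene (rows) in 3 contrasts, namely the mean of the 4 CIA arms minus healthy rats at 1 hour and at 34 days, and ANE minus the mean of AP, MTX and PLA over both times. Filled points passed an adjusted p of 0.05 in limma. The contrast with healthy rats lies on opposite sides of 0 at the 2 times, and in ANE the 8 genes are lower while Glce and Gigyf2 are higher.

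Time after therapy, averaged over the 5 arms with equal weight, moved none of the 25 probe sets past limma's threshold, against 0.101% of all probe sets (0.0145% higher and 0.087% lower at 34 days), while 10 had an unadjusted p under 0.05 (12.7% of all). Dctn6 came nearest at its leading probe set, with a difference of 0.48 (limma, adjusted p = 0.0787), and it passed after quantile normalisation. Without the 4 platelet-rich arrays 6 probe sets passed, where 6.96% of all did, and these were the leading ones of Glce, Rictor, Dctn6, Oser1 and Ccz1 and a further one of Gigyf2. A contrast restricted to the 4 CIA arms was added after the data were seen. Its time difference was 0.25 for Oser1, 0.23 for Dctn6 and 0.05 for both Rictor and Pnpla8. Without the 4 platelet-rich arrays the latter 2 read -0.005 and -0.13. With all arrays none of the 25 passed limma's test, and 1 had an unadjusted p under 0.05 (5.41% of all probe sets). This was Cks2, which differed by -0.30 with a 95% interval from -0.56 to -0.04 (limma, adjusted p = 0.909).

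For needle stimulation and methotrexate none of the member probe sets passed limma's test at either time. Against PLA, AP_1h differed by 0.20 for Cks2 and 0.33 for Dctn6, and MTX_1h by -0.14 and 0.02. At 34 days the differences from PLA were -0.24 for Cks2 and -0.80 for Mtf1 in AP, and -0.43 and -0.07 in MTX. AP against MTX at 34 days gave 0.20 for Cks2, -0.73 for Mtf1 and -0.47 for Glce. No probe set of the whole array passed limma's test in these 5 contrasts. Among the member probe sets 0, 3, 9, 0 and 6 had an unadjusted p under 0.05 (AP and MTX against PLA at 1 hour, the same at 34 days, and AP against MTX), where all probe sets gave 2.52%, 7.36%, 23.2%, 0.739% and 14.4%. Without AP_34d replicate 2, which leaves AP_34d with its platelet-rich array alone, 9 member probe sets passed against PLA and 10 against MTX. In those fits 39.2% and 34.7% of all probe sets passed, so the members' share lay near the background. A test that misses its threshold does not show that the arms act alike, and for Cks2 the 95% interval ran from -0.32 to 0.72 for AP and from -0.66 to 0.38 for MTX at 1 hour.

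Among the CIA arms ANE lay lowest at most of the leading probe sets. At 1 hour ANE had the lowest mean of the 4 CIA arms for all 8 genes that were lowest in healthy baseline, and at 34 days for 7 of them, Mtf1 being the exception, where AP_34d replicate 1 read 6.06. Both ANE arrays lay below all 6 arrays of AP, MTX and PLA for 6 of the 8 genes at 1 hour and for 4 at 34 days. The same counts were not made over all probe sets. The 8 genes were chosen by a shared rule and moved together, so these counts describe the members only. Dctn6 at 1 hour read 5.29 and 5.50 in ANE against 6.42 and 6.39 in PLA, a difference of -1.01 ± 0.23 (SE; limma, adjusted p = 0.169). Ccz1 read 5.64 and 5.69 against 6.61 and 6.29, a difference of -0.79 ± 0.23 (limma, adjusted p = 0.305). Cks2 at 34 days read 9.57 and 9.43 in ANE against 10.67 and 10.56 in PLA, a difference of -1.12.
Against PLA none of the 25 probe sets passed limma's test at 1 hour (0.0242% of all) or at 34 days (0% of all), while 12 and 6 had an unadjusted p under 0.05, against 6.67% and 3.07% of all probe sets. Without the 4 platelet-rich arrays this contrast at 1 hour set a single ANE_1h array against a single PLA_1h array, with the spread taken from other groups. The 3 Rnf138 probe sets then differed by -1.04 to -1.42.
In a contrast added after the data were seen, ANE was set against the mean of AP, MTX and PLA over both times. There 3 of the 25 passed, all lower in ANE, and 0.275% of all probe sets passed. Dctn6 at its leading probe set differed by -0.96 ± 0.13 (SE; limma, adjusted p = 0.00817), Pnpla8 at its leading probe set by -0.88 ± 0.16 (limma, adjusted p = 0.0376) and Cks2 by -0.74 ± 0.14 (limma, adjusted p = 0.0493). Glce read 0.99 with an adjusted p of 0.0815 and Rictor -0.95 with an adjusted p of 0.0808, both by limma. Other probe sets of the same genes did not all follow. The brightest ones of Dctn6 and Ccz1 read 0.15 and 0.10, and the further ones of Mtf1 read 0.28 and 0.41 (limma, adjusted p from 0.241 to 0.942). The further Rnf138 probe sets read -0.62 each, the brightest of Rictor -0.26 and the further ones of Pnpla8 from -0.41 to 0.09. Without the 4 platelet-rich arrays 14 of the 25 passed, and 13.9% of all probe sets did. ANE set against PLA alone over both times gave none by limma, with 13 at an unadjusted p under 0.05 (7.32% of all probe sets), and 11 without the 4 platelet-rich arrays, where 5.01% of all passed. The neutrophil list read -1.39 and 2.53 in the ANE_1h arrays, the lowest and the highest of the 24. The B cell list read 0.24 and 0.77 in ANE_34d against -1.29 to -0.25 in the other 6 CIA arrays at 34 days, and the liver plasma protein list 3.82 and 0.92 in ANE_1h against at most 0.52 in the other 6 at 1 hour. The part of these lists in the differences was not tested.

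The partners of each gene, in 10 lists written from general knowledge, gave 7 calls over the 11 tested contrasts. Of 21 genes of the cell division machinery around Cks2, none separated healthy baseline from the other arrays, and the median difference of the other groups from healthy baseline was -0.30, where Cks2 itself had 2.14 and all genes -0.02. Ccnb2 and Mki67, a mitotic cyclin and a proliferation marker, were the only ones called after baseline. Ccnb2 read 6.71 to 8.09 at 1 hour and 5.94 to 7.02 at 34 days, and it fell by 0.97 ± 0.14 over the 5 arms (SE; limma, adjusted p = 0.0130). Mki67 read 6.45 to 8.29 and 5.40 to 6.66, and it fell by 1.13 ± 0.18 (limma, adjusted p = 0.0205). Cks2 differed by 0.06 in the same contrast. In healthy baseline Cdk1, the kinase of mitosis, read 6.88 and 6.90 within a range of 5.41 to 7.80, on the upper side where Cks2 was lowest.

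Around Ccz1, 3 of 16 partners passed the test of CIA arms against healthy rats at 34 days, where 2.16% of all genes did. Tbc1d15, which switches Rab7 off, read 11.07 and 10.80 in NORA_34d against 9.10 to 10.14 in the CIA arms, a difference of -1.28 (limma, adjusted p = 0.0244). Plekhm1, an effector that joins late endosomes to lysosomes, was lower by 0.58 (adjusted p = 0.0398) and the early endosomal GTPase Rab5b higher by 0.83 (adjusted p = 0.0382), both by limma. Of 16 zinc and metallothionein genes around Mtf1, the zinc exporter Slc30a4 was lower in the CIA arms by 0.86 (limma, adjusted p = 0.0297). Of 18 mTOR complex genes around Rictor, Tti2, which helps to assemble such kinases, was lower by 0.60 (limma, adjusted p = 0.0435). These partner calls rest on the same NORA_34d arrays as those of the members. Nearly all calls of this contrast over all probe sets were lost when only the groups compared were fitted. Single partners were not followed through the alternative fits. No partner passed in the lists of Glce (19 genes tested), Gigyf2 (16), Oser1 (19), Rnf138 (15), Dctn6 (18) and Pnpla8 (12) in any of the 11 tested contrasts.
In healthy baseline 6 of the 170 partners tested, or 3.53%, stood apart from all other arrays, a share near the 3% of all probe sets. Metallothionein Mt2A was lower, at 8.49 and 8.28 against 8.59 to 11.79. Ugdh (8.36 and 8.48 against at most 8.34), which makes the sugar that Glce later modifies, was higher. The others, all higher, were Cnot6 of the CCR4-NOT deadenylase, the capping subunit Capza1, the lysosomal phospholipase Pla2g15 and Ankfy1. These 6 describe the same arrays that chose the members.

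Other transcripts also moved with healthy baseline. The centred mean of 7 B cell markers was 0.86 and 0.88 there and -1.29 to 0.77 in the other arrays, and 5 of the 7 genes lay above all of them. That of 8 liver plasma protein genes was 1.82 and 1.98, with a median of -0.42 and a maximum of 3.82 elsewhere. The T cell list read 0.38 and 0.42 within a range of -1.33 to 0.60, and the neutrophil list -0.44 and -0.67 within -1.39 to 2.53. Of 14 clock genes only Per3 stood apart from all other arrays, being lower in healthy baseline at 5.95 and 5.62 against 6.13 to 7.31. Of 16 immediate early genes only Egr1 did, being higher at 10.91 and 10.87 against 7.05 to 10.49. None of 9 glucocorticoid response genes stood apart, and 3% of all probe sets did. The difference between the 3' and 5' control probe sets, a measure of RNA integrity, was 0.06 and 0.20 for Gapdh in healthy baseline, and 0.56 and 0.84 for Actb. NORA_T0 replicate 2 had the highest value of the 24 arrays in both, where the next arrays read 0.16 and 0.68. The part of these markers in the members' levels was not tested, and the day of sampling cannot be told apart from the group.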

How the data were processed

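Levels were the log2 values deposited by the authors, who summarised Affymetrix rat whole-genome expression arrays with RMA (affy, version not given in the sources used here), which corrects background, normalises between arrays by quantiles and so removes shifts of the whole array. The study's methods also describe MAS5 with detection calls. Values of these were not used here. Of 31099 probe sets, 57 controls were left out. By the platform annotation 20832 had 1 symbol, 436 several and 9831 none, and only those with 1 symbol were named. No count lies behind an array value, so its precision rests on the number of arrays.

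A linear model with 1 coefficient per group was fitted to 24 arrays with limma 3.58.1 in R 4.3.3 (12 residual degrees of freedom), over the 20690 probe sets above the 40th percentile of the array in at least 2 arrays. P-values were adjusted over all of them (Benjamini-Hochberg, threshold 0.05) in 11 contrasts. The members and gene lists were chosen with earlier results of these data known. Contrasts with NORA_T0 or RA_T0 carry no test, because they chose the members. The later groups took part in that choice as the side healthy baseline was set against, so tests between them are not independent of it. The leading, brightest and further probe sets of all 10 genes were named, and for each leading one the 3 genes with the highest Pearson correlation. A partner or marker gene was read at its brightest probe set. On simulated data with 200 of 20690 probe sets changed, the contrast of CIA arms against healthy rats at 34 days recovered 54.1% of 2-fold and 93.3% of 4-fold changes, and 5.5% of calls were false. The simulated noise was independent between probe sets and equally wide in all groups. In the real arrays the estimated weights ran from 0.19 in AP_1h to 2.60 in MTX_1h, so these shares may not hold there. RNA was processed in a single batch per the study's methods. Alternatives were another filter, no filter, quantile normalisation, array weights, a trend, a replicate block, only the groups compared, and leaving out each array. The fit without the 4 platelet-rich arrays was set with earlier results known, and the contrasts of ANE against PLA or the other CIA arms over both times, and of time over the CIA arms alone, were chosen after seeing the data. The promoter search and the plots used Python 3.11.15, pandas 2.3.3 and matplotlib 3.10.9.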

Additional observations from a re-analysis of the deposited data

Results flagged for a closer look

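The difference between CIA arms and healthy rats changed from 1 hour to 34 days at 2 member probe sets, by limma's test of the change itself. For Cks2 it went from 0.72 to -1.05, a change of -1.77 ± 0.27 (SE; limma, adjusted p = 0.0329), and the call was kept in 10 of 20 fits that left out an array. For the leading probe set of Rictor it went from 1.04 to -1.76, a change of -2.80 ± 0.44 (SE; limma, adjusted p = 0.0329), and the call was kept in 8 of 20. The later groups took part in the choice of the members, so neither call is independent of it. The groups hold 2 arrays each, too few to look for a single array far from its group.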

How the results depend on the processing

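No call of the main fit turned its direction under any alternative run. Small differences that were not called did turn. Over the 4 CIA arms, the leading probe set of Pnpla8 differed between 34 days and 1 hour by 0.05, and by -0.13 without the 4 platelet-rich arrays. That of Rnf138 went from 0.005 to -0.04. For CIA arms against healthy rats at 34 days, 5 member probe sets passed limma's test, 0 when only the groups compared were fitted and 14 with array weights. Over all probe sets the corresponding counts were 476, 1 and 3154, so these shifts were not particular to the members. The calls lost when single arrays were left out are given with the result above. The change of this contrast between times gave 2 calls, 0 with only the groups compared, 4 with quantile normalisation, 4 with array weights, 13 without the 4 arrays, and 0 to 6 with an array left out (6 without NORA_1h replicate 2), where all probe sets gave 11, 1, 148, 153, 2204 and, without NORA_1h replicate 2, 104. For 34 days against 1 hour there were 0 calls, 1 with quantile normalisation, 6 without the 4 arrays and 0 to 3 with an array left out (3 without NORA_1h replicate 2), where all gave 21, 168, 1441 and, without that array, 369. ANE against PLA at 1 hour gave 0 calls (5 of all), and without the 4 arrays it compared a single array of each group. At 34 days it gave 0 calls, 3 with array weights and 3 when set against the other CIA arms over both times (0, 85 and 57 of all). AP against PLA at 34 days ranged from 0 to 9 and AP against MTX from 0 to 10, the high counts without AP_34d replicate 2, where 8114 and 7177 of all probe sets passed. With an array left out, the member probe sets apart in healthy baseline numbered 9 to 13 (13 without NORA_1h replicate 1). The count over all probe sets was not made with arrays left out. The cause of these changes was not tested.

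Replicate numbers did not pair the arrays, since the correlation of deviations between same-numbered arrays ran from -0.76 to 0.80 over 66 pairs of groups. With the replicate block the contrast at 34 days gave 4 calls (Mtf1 was lost, at an adjusted p of 0.0504 by limma, as it was at 0.0539 with no filter and 0.0547 with a trend), the change between times 2 and the others 0. With 2 arrays a group and dim probe sets for Rictor and Gigyf2, small differences could not be resolved.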
